A study of Homo sapiens with 6 samples.

Results

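The protein components of the spliceosome were examined in A2780 cells, a human ovarian cancer cell line, after knockdown of USP39. Genes were taken by symbol from the deposited table: the SNRP and SNRNP genes, the SF3A and SF3B genes, the numbered LSM and PRPF genes, and SART1, SART3, U2AF1, U2AF2 and EFTUD2. These were 55 genes of 16571 in the table. USP39 itself is part of the same group by name but was not analysed here, so the knockdown was not checked at the targeted gene.

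Every culture had received a lentivirus. The 3 control libraries (pGIPZ-NC) came from cells with the control vector and the 3 knockdown libraries (shUSP39) from cells with a hairpin against USP39. The study placed its hairpins in the pGIPZ vector. The labels do not give which hairpin each shUSP39 library carried, and the series text calls the replicates biological, without saying whether they were separate infections. The p-values therefore measure the spread between these libraries.

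Nuclear introns are removed by small nuclear ribonucleoproteins (snRNPs), each an RNA with its own proteins. The U1 snRNP pairs with the 5′ splice site and the U2 snRNP with the branch point, where the SF3A and SF3B complexes hold it. The U4/U6.U5 tri-snRNP then joins, U1 and U4 leave, and the catalytic centre forms on U6. USP39, the human counterpart of yeast Sad1, belongs to the tri-snRNP.

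The target sequences of the study's hairpins are shown because they define the knockdown. They are given 5′ to 3′ in the sense of the USP39 messenger RNA, and capitals mark bases that lie in the exon after a splice junction.
sh-USP39-1: gATTTGGAAGAGGCGAGATAA
sh-USP39-2: gttgcctccatatctaatctt
The first target joined exons 12 and 13 of the 13 exons of the canonical USP39 transcript, at chr2:85875139-85875903 on the plus strand of GRCh37, with 1 base in exon 12 and 20 bases in exon 13. The second lay within exon 10, at chr2:85868149-85868169 on the same strand. All 21 bases of each target were coding. In GENCODE, 7 of 20 USP39 transcripts held the first target and 9 of 20 held the second. Searched against all GENCODE transcripts of the 55 genes, the first target had its closest match in PRPF8, with 5 mismatches, and the second had more than 5 mismatches in every gene.

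Libraries held 28294819 to 32939264 counts. The shUSP39 libraries 2 and 3 had a count in 15446 and 14890 genes, against 12662 to 12819 in the other 4 libraries. The labels call the cells a serous ovarian cancer line. Of the ovarian epithelial markers, PAX8 and EPCAM stayed at or under 0.203 CPM in every library and CDH1 was at 0 in all but shUSP39 2. The 7 epithelial markers in the table summed to 22.2 to 25.4 CPM in pGIPZ-NC and 32.6 to 39.5 CPM in shUSP39. KRT18 made up most of each sum. MUC16 was at 4.90 and 2.40 CPM in shUSP39 2 and 3 and at or under 0.188 CPM in the other libraries, and KRT8 was at 0.878 to 1.14 CPM in pGIPZ-NC and at or under 0.0938 CPM in shUSP39. The 4 fibroblast genes summed to 1437 to 1486 CPM and 790 to 840 CPM, nearly all COL3A1. The 3 leukocyte genes summed to at most 0.490 CPM and the 3 endothelial genes to at most 1.73 CPM. The part of these differences in the results was not tested, and in bulk RNA fewer cells of a kind and less RNA per cell cannot be told apart. CPM is the count per 1000000 counts of the library, scaled between libraries with TMM factors.

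Of the 55 genes, 54 could be tested. With shUSP39, 20 fell, 3 rose and 31 did not pass (edgeR's quasi-likelihood test, adjusted p limit 0.05). Among all 10695 genes tested, 33.6% were called, 17.5% as lower and 16.1% as higher. The genes that fell included SNRPF and SNRPD1 of the Sm ring, SNRNP70 of U1, 7 U2 proteins (SNRPA1, SF3B3, SF3B6, SF3A1, SF3A2, SF3B2 and SF3B1), PRPF8, SNRNP200 and SNRNP40 of U5, PRPF31, SNRNP27, LSM2, LSM3, SART3 and PRPF4B. Those that rose were SF3B5, SNRPB2 and LSM11. None both passed and changed beyond 2-fold, which 6.81% of all genes did. EFTUD2, with few counts, had a fitted fold of 2.12 and did not pass. The median log2 fold change was -0.07 over the 54 genes and 0.01 over all genes tested. In 19 genes all 3 shUSP39 libraries lay below all 3 pGIPZ-NC libraries and in 4 all lay above, arrangements held by 22.5% and 21.7% of all genes.

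The scaling and the libraries bore on these counts. With shUSP39 2 and 3 left out, 12 genes fell and 2 rose. That fit sets 1 shUSP39 library against 3 controls, so the controls alone give the spread. Among the calls lost, the log2 fold change was nearer 0 for LSM3 (-0.06 against -0.19), SNRNP27 (-0.17 against -0.42), SF3B1 (-0.04 against -0.09), SF3B6 (-0.11 against -0.19) and SART3 (-0.09 against -0.15). It moved less for SNRNP70 (-0.11 against -0.13) and SNRNP40 (-0.15 against -0.19), and SNRPB2 was at 0.31 against 0.28. With upper-quartile scaling, 15 genes fell and 4 rose. The calls of SF3A2, SF3B1, LSM3, SNRNP27 and SNRNP70 were then lost and PRPF3 passed as higher. Over all called genes, 47.97% were higher with TMM scaling and 58.05% with upper-quartile scaling.

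Spliceosomal genes are mostly abundant, and abundant genes are called more often. Among the 2187 genes with a mean of at least 100 CPM, 56.8% were called, 38.0% as lower and 18.8% as higher. Of the 33 spliceosomal genes at that level, 57.6% were called, which is near the background. Their direction was more uneven, with 54.5% lower and 3.03% higher. Their median was -0.12, against -0.05 over all genes at that level. No test of this difference was made, since the genes were chosen with results of these data known.

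**Figure D1:**
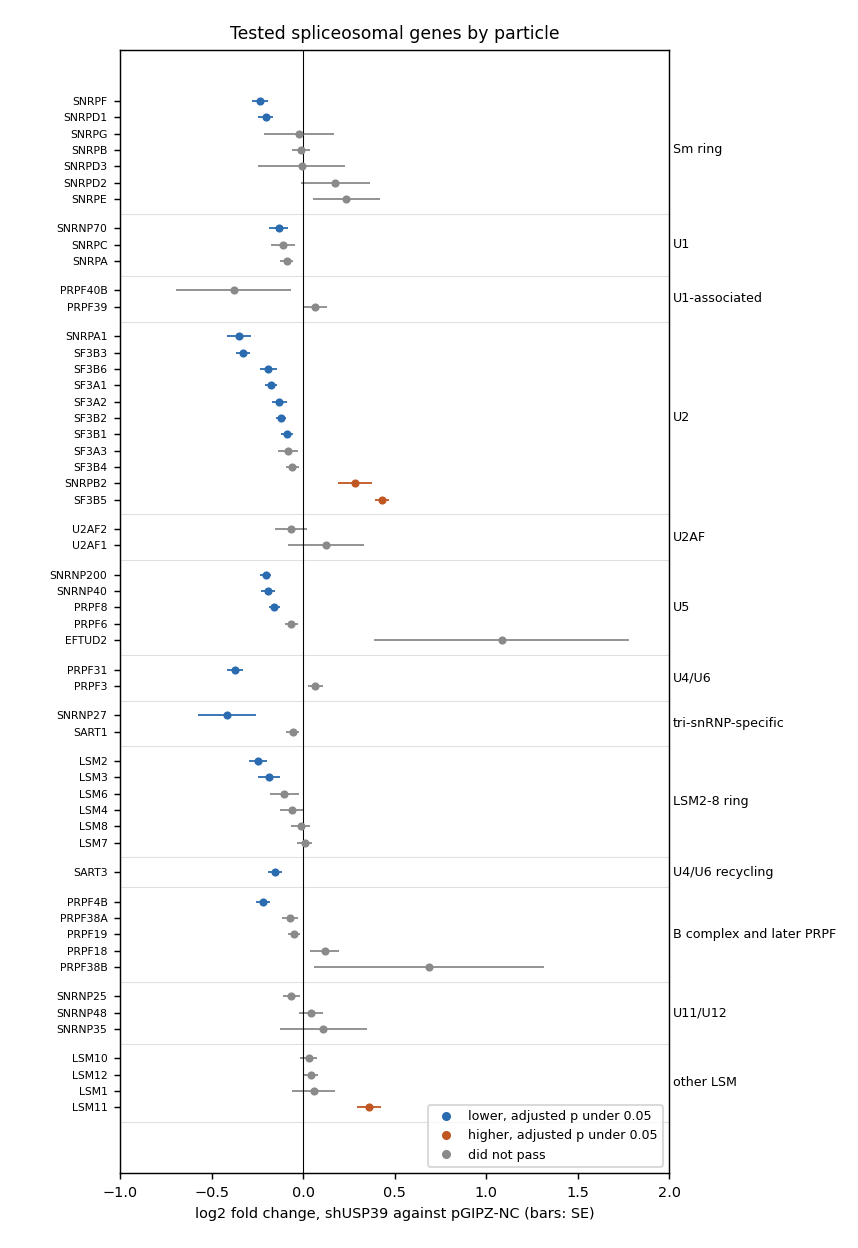
Log2 fold change of shUSP39 against pGIPZ-NC for tested genes, grouped by particle, with points for the estimate and bars for its SE. Most called genes (blue, lower) lie between -0.4 and 0, and the 3 called as higher (orange) are SNRPB2, SF3B5 and LSM11.

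The U1, U2 and tri-snRNP proteins were compared next. Their counts stand beside 17.5% lower and 16.1% higher over all genes tested, and 38.0% and 18.8% over genes of at least 100 CPM. Of 3 U1 proteins, 1 fell and 2 did not pass. Of 11 U2 proteins, 7 fell, 2 rose and 2 did not pass. Of 15 tested tri-snRNP proteins (U5, U4/U6, tri-snRNP-specific and LSM2 to LSM8), 7 fell and 8 did not pass. The median log2 fold changes were -0.11 for U1, -0.12 for U2 and -0.10 for the tri-snRNP. With upper-quartile scaling they were -0.07, -0.08 and -0.06, and without shUSP39 1 the tri-snRNP median was -0.16. Taken in each library against the pGIPZ-NC mean, the median in shUSP39 libraries 1, 2 and 3 was -0.11, -0.12 and -0.13 for U1, -0.11, -0.15 and -0.12 for U2, and -0.06, -0.12 and -0.11 for the tri-snRNP. Single proteins ranged widely within the U2 snRNP and the tri-snRNP. No test between particles was made.

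The U2 proteins held the widest spread of called genes. SNRPA1 encodes a leucine-rich repeat protein that binds the U2 RNA together with the SNRPB2 protein and was among the proteins the study examined. It measured 68.8, 60.4 and 60.3 CPM in the controls and 51.9, 47.9 and 48.9 CPM after knockdown. The groups did not overlap, and the level fell to 78.5% of control (log2 fold change -0.35, SE 0.07, edgeR adjusted p = 1.74e-04). Its partner SNRPB2 measured 18.4, 16.96 and 17.6 CPM in the controls and 21.97, 20.8 and 21.7 CPM after knockdown, and rose by a log2 fold change of 0.28 (SE 0.09, edgeR adjusted p = 0.0184). All shUSP39 values of SNRPB2 were above all controls. Its call was lost without pGIPZ-NC 2 (adjusted p = 0.0799), shUSP39 1 (0.0595) or shUSP39 3 (0.0530), with a log2 fold change of 0.25 to 0.31 over the libraries left out. The ratio of SNRPA1 to SNRPB2 CPM was 3.57 ± 0.164 (SD, n = 3) in pGIPZ-NC and 2.30 ± 0.0549 (SD, n = 3) in shUSP39. This ratio and those that follow were chosen after the values were seen and were not tested.

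SF3B3, a large repeat scaffold of the SF3B complex, lies at chr16:70557694-70611573 (GRCh37, plus strand) and its canonical transcript has 26 exons. It had 655, 666 and 649 CPM in the controls and 541, 534 and 494 CPM after knockdown. The change was -0.33 (SE 0.04, edgeR adjusted p = 3.56e-08), and SF3B3 fell to 79.6% of control with no overlap. SF3B5, a small protein that sits against SF3B3 in the same complex, lies at chr6:144416021-144416710 (minus strand) and has a transcript of 1 exon. It had 258, 276 and 268 CPM in the controls and 354, 352 and 375 CPM after knockdown. Here all shUSP39 libraries were above the controls, at 135% of their mean, and the change was 0.43 (SE 0.04, edgeR adjusted p = 1.20e-09). The ratio of SF3B5 to SF3B3 CPM was 0.407 ± 0.0117 (SD, n = 3) in pGIPZ-NC and 0.691 ± 0.0587 in shUSP39.

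The other SF3 proteins moved less. SF3A1, the SF3A subunit that joins the other SF3A proteins, had 727, 745 and 751 CPM in the controls and 656, 648 and 665 CPM after knockdown, with no overlap (log2 fold change -0.17, SE 0.03, edgeR adjusted p = 7.52e-05). SF3B2, which binds near the branch point, went from 1569, 1557 and 1575 CPM to 1438, 1435 and 1443 CPM. The libraries within each group differed little, and the small change of -0.12 (SE 0.03) passed (edgeR adjusted p = 8.16e-04). SF3B6, the protein that contacts the branch point adenosine, had 169.6, 166 and 162 CPM in the controls and 154, 145 and 137 CPM after knockdown (log2 fold change -0.19, SE 0.05, edgeR adjusted p = 0.00219). SF3A2, an SF3A subunit beside the U2 and branch point helix, had 302, 325 and 317 CPM and 279, 283 and 302 CPM in the same order. Its highest shUSP39 value was close to its lowest control value, and the change of -0.13 (SE 0.04, edgeR adjusted p = 0.0134) did not pass without pGIPZ-NC 2 (0.0899) or shUSP39 2 (0.0647). The 2 SF3 genes that did not pass were SF3A3, at 92.3 ± 2.68 CPM in the controls and 87.1 ± 3.997 CPM after knockdown, and SF3B4, at 588 ± 10.4 CPM in the controls and 564 ± 16.8 CPM after knockdown (SD, n = 3).

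SF3B1, which clamps the branch point helix and was examined by the study as a protein, had 1039, 996 and 970.2 CPM in the controls and 972, 932 and 922 CPM after knockdown. The highest shUSP39 library lay above the lowest control. The change was -0.09 (SE 0.03, edgeR adjusted p = 0.0373), and it did not pass without pGIPZ-NC 1 (0.176), pGIPZ-NC 2 (0.0726), shUSP39 2 (0.123) or shUSP39 3 (0.153). SF3B1 had 2 transcripts in the table. The major form, NM_012433.3, had 32804, 32069 and 27134 counts in pGIPZ-NC and 30949, 28366 and 27134 in shUSP39, and did not pass (log2 fold change -0.08, edgeR adjusted p = 0.0679). The minor form, NM_001308824.1, had 325, 277 and 257 counts in pGIPZ-NC and 156, 153 and 144 in shUSP39. It fell by 0.91 on the log2 scale (SE 0.15, edgeR adjusted p = 2.99e-05). Its share of SF3B1 counts was 0.925% ± 0.0633 (SD, n = 3) in pGIPZ-NC and 0.522% ± 0.0182 in shUSP39, with no overlap. Of the 5 genes that entered edgeR's test of transcript usage, SF3B1 was the 1 called (adjusted p = 6.76e-04 over all genes), against 3.69% of all genes in that test. How reads shared by both transcripts were counted is not given in the sources used here, so the share is one of counts and not of molecules.

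**Figure D2:**
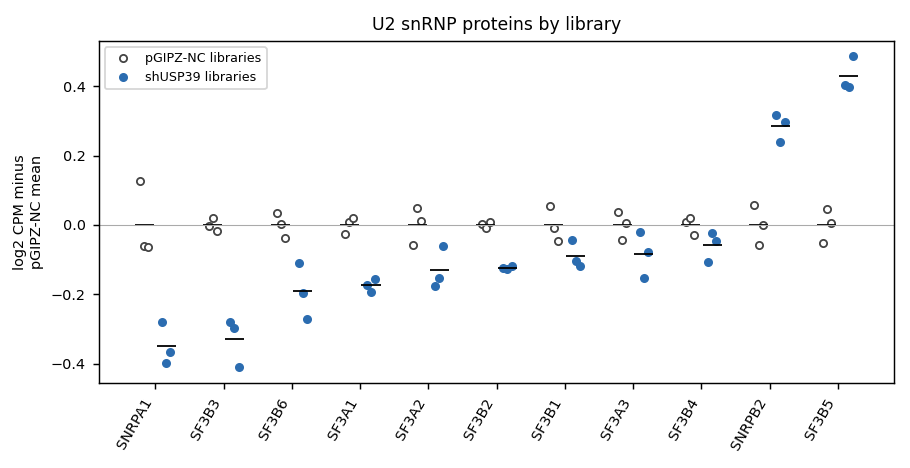
Log2 CPM of each U2 protein gene in each library, relative to the pGIPZ-NC mean of that gene, with open circles for pGIPZ-NC, filled circles for shUSP39 and lines for group means. SNRPA1 and SF3B3 lie lowest in shUSP39, SNRPB2 and SF3B5 lie above all controls, and SF3B1 and SF3B4 lie close to the control range.

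**Figure D3:**
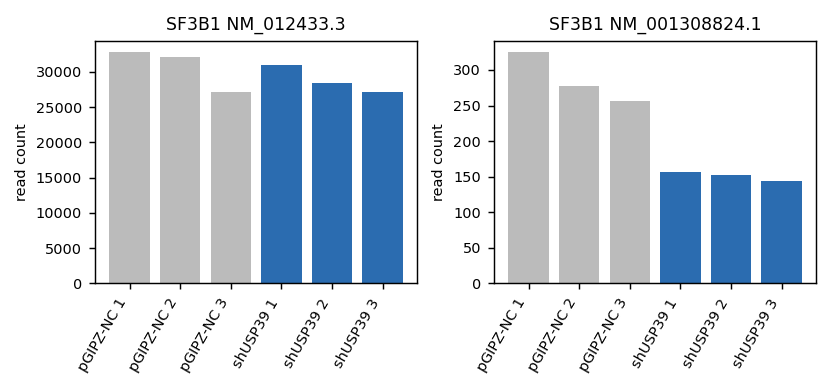
Read counts of the SF3B1 transcripts NM_012433.3 and NM_001308824.1 in each library, with linear axes from 0 that differ between the panels. The minor form had 257 to 325 counts in pGIPZ-NC and 144 to 156 in shUSP39, while the major form had 27134 to 32804 counts over all libraries.

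Per kilobase of the canonical transcript, and with the caution that the transcript in the table may be shorter or longer, the pGIPZ-NC levels of U2 proteins ran from SF3B2 (479 CPM per kb), SF3B5 (388) and SF3B4 (381) down to SF3A3 (33.3) and SNRPB2 (7.33). SF3B1 (155) and SF3A1 (146) were close to each other, and SF3B3 (67.8) was close to SNRPA1 (60.05). U2AF recognises the 3′ splice site and recruits U2, and neither subunit passed. U2AF2, which binds the polypyrimidine tract and was examined by the study, had 23.1, 25.5 and 26.1 CPM in the controls and 22.4, 24.7 and 24.3 CPM after knockdown, with overlapping groups (log2 fold change -0.07, SE 0.09, edgeR adjusted p = 0.619). U2AF1, which reads the terminal AG, was at 3.86 ± 0.805 CPM in the controls and 4.22 ± 0.680 CPM after knockdown (SD, n = 3).

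Among the U1 proteins, SNRNP70 (the protein on the first stem of the U1 RNA) had 113, 119.8 and 125 CPM in the controls and 111, 109.6 and 105 CPM after knockdown. The groups did not overlap, yet the change of -0.13 (SE 0.05, edgeR adjusted p = 0.0445) was near the threshold and did not pass without pGIPZ-NC 2 (0.103), pGIPZ-NC 3 (0.172), shUSP39 2 (0.0823) or shUSP39 3 (0.152). SNRPA, which binds the second stem, measured 348 ± 4.50 CPM in the controls and 327 ± 8.86 CPM after knockdown and SNRPC, which steadies the pairing with the 5′ splice site, 54.2 ± 2.67 CPM in the controls and 50.2 ± 2.45 CPM after knockdown (SD, n = 3). Neither passed, though the SNRPA groups did not overlap. PRPF39, a U1-associated protein, was at 107 ± 10.8 CPM in the controls and 112 ± 7.67 CPM after knockdown. PRPF40B was at 2.47 ± 0.765 CPM in the controls and 1.91 ± 0.834 CPM after knockdown, and 54.2% of its transcript overlaps FMNL3 on the opposite strand. Neither passed.

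In the U5 snRNP, PRPF8, the scaffold of the catalytic centre, had the most counts of the genes examined, with 2283, 2370.1 and 2426 CPM in the controls and 2115, 2169 and 2066 CPM after knockdown. No shUSP39 library reached the controls, and the change was -0.16 (SE 0.03, edgeR adjusted p = 1.07e-04). SNRNP200, the helicase that unwinds U4 from U6, had 1481, 1549 and 1573 CPM and 1307, 1359 and 1331 CPM. The groups did not overlap (log2 fold change -0.20, SE 0.03, edgeR adjusted p = 5.07e-06). SNRNP40, a WD-repeat U5 protein, had 323, 319.9 and 307 CPM and 285, 273 and 275 CPM (log2 fold change -0.19, SE 0.04, edgeR adjusted p = 2.26e-04). PRPF6, which bridges U5 and U4/U6, did not pass at 328 ± 3.10 CPM in the controls and 313 ± 3.61 CPM after knockdown (SD, n = 3), although its groups did not overlap. EFTUD2, the U5 GTPase, had only 2 to 18 counts per library (0.0616 to 0.588 CPM), and 1 of its 4 current RefSeq transcripts was in the table, so its level and its log2 fold change of 1.08 (SE 0.70) are uncertain.

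Of the U4/U6 proteins, PRPF31 fell and PRPF3 did not pass, and the difference between them was not tested. PRPF31, which bridges U4/U6 and U5, lies at chr19:54618790-54635150 (GRCh37, plus strand). It had 220.2, 209 and 216 CPM in the controls and 159, 169 and 169.9 CPM after knockdown. With no overlap, it fell to 77.2% of control (log2 fold change -0.37, SE 0.04, edgeR adjusted p = 8.85e-08). An annotated antisense gene, PRPF31-AS1, covers 32.1% of its transcript, and whether strand was used in counting is not given in the sources used here. PRPF3, which holds the U4/U6 duplex and was examined by the study, had 298, 279 and 292 CPM in the controls and 304, 312 and 293 CPM after knockdown. These groups overlapped (log2 fold change 0.07, SE 0.04, edgeR adjusted p = 0.199). The ratio of PRPF31 to PRPF3 CPM was 0.743 ± 0.00503 (SD, n = 3) in pGIPZ-NC and 0.548 ± 0.0293 in shUSP39.

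The proteins found in the tri-snRNP but not in its parts include USP39 itself, SART1 and SNRNP27. SART1, which was examined by the study, had 487, 522 and 507 CPM in the controls and 496, 471 and 490.0 CPM after knockdown. The groups overlapped and the change did not pass (log2 fold change -0.06, SE 0.04, edgeR adjusted p = 0.238). SNRNP27, an SR-related protein, had 13.7, 11.5 and 8.43 CPM and 9.97, 7.74 and 7.54 CPM. Its control libraries spread more than the difference between groups, and its change of -0.42 (SE 0.16, edgeR adjusted p = 0.0443) did not pass without pGIPZ-NC 1 (0.310), pGIPZ-NC 2 (0.119), shUSP39 2 (0.155) or shUSP39 3 (0.156). In DESeq2's Wald test it had an adjusted p of 0.0610. Its transcript shares 16.6% of its bases with MXD1 on the same strand.

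The LSM2 to LSM8 ring binds the end of the U6 RNA. LSM2 had 189, 176 and 186 CPM in the controls and 143, 155 and 166 CPM after knockdown, and fell without overlap (log2 fold change -0.25, SE 0.05, edgeR adjusted p = 2.40e-04). LSM3 had 126, 113 and 111 CPM and 112, 96.5 and 98.6 CPM, with overlap. Its change of -0.19 (SE 0.06, edgeR adjusted p = 0.0147) did not pass without pGIPZ-NC 1 (0.117), shUSP39 2 (0.106) or shUSP39 3 (0.0718). LSM7 was at 184 ± 2.46 CPM in the controls and 185 ± 1.44 CPM after knockdown (SD, n = 3). Of the ring proteins tested, it had the smallest absolute log2 fold change (0.0082). LSM4 was at 48.8 ± 1.25 CPM in the controls and 46.7 ± 1.88 CPM after knockdown, LSM6 at 41.6 ± 1.82 CPM in the controls and 38.7 ± 4.30 CPM after knockdown and LSM8 at 113 ± 7.65 CPM in the controls and 112 ± 2.58 CPM after knockdown (SD, n = 3). None passed, with log2 fold changes from -0.10 to -0.01. LSM5 was at or under 0.588 CPM in every library and was not tested. The ratio of LSM2 to LSM7 CPM was 0.998 ± 0.0460 (SD, n = 3) in the controls and 0.835 ± 0.0555 after knockdown.

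**Figure D4:**
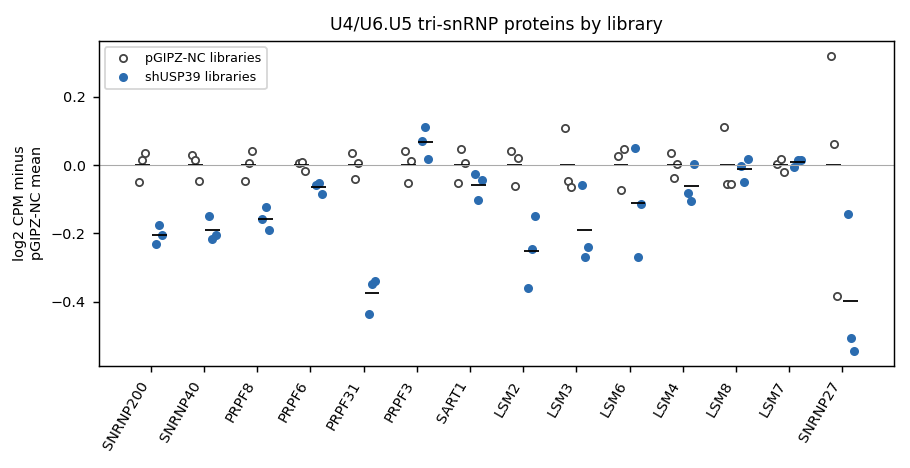
Log2 CPM of tri-snRNP protein genes with a mean of at least 10 CPM, and of SNRNP27, in each library relative to the pGIPZ-NC mean of that gene, with lines for group means. PRPF31 lies well below its controls and PRPF3 overlaps them, while the SNRNP27 control libraries are far apart.

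The Sm ring, made of B, D1, D2, D3, E, F and G, is shared by U1, U2, U4 and U5. SNRPF had 258, 251 and 244 CPM in the controls and 220.3, 202 and 218 CPM after knockdown (log2 fold change -0.24, SE 0.04, edgeR adjusted p = 6.61e-05). SNRPD1 had 230.4, 221 and 224 CPM and 193, 200.3 and 193 CPM (log2 fold change -0.20, SE 0.04, edgeR adjusted p = 2.09e-04). Both fell without overlap. SNRPB did not, at 106 ± 1.76 CPM in the controls and 105 ± 1.65 CPM after knockdown (SD, n = 3). SNRPD2, SNRPD3, SNRPE and SNRPG were counted at 2.33 to 5.69 CPM in all libraries and did not pass. Per kilobase of canonical transcript, control levels in the ring ran from 556 CPM per kb for SNRPF to 0.823 for SNRPD3. Between them lay 97.99 for SNRPB and 6.74 for SNRPG. The transcript counted may be shorter or longer than the canonical one. Of current RefSeq transcripts, the table held 1 of 2 for SNRPF, SNRPB and SNRPD3 and 3 of 7 for SNRPG. These values are therefore levels of the transcripts counted, not of the whole genes. In all, 11 of the 55 genes had a mean under 10 CPM, and for 9 of these 11 the table held fewer transcripts than current RefSeq lists.

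SART3, which rejoins U4 and U6 after each round of splicing, had 360.5, 361 and 379 CPM in the controls and 344, 333 and 312 CPM after knockdown. It fell without overlap (log2 fold change -0.15, SE 0.04, edgeR adjusted p = 0.00285). PRPF4B, a kinase that acts on tri-snRNP proteins, had 432, 417 and 398 CPM and 359, 370.3 and 343 CPM, and also fell without overlap (log2 fold change -0.22, SE 0.04, edgeR adjusted p = 5.75e-05). PRPF19, the ubiquitin ligase of a complex that joins at activation, was at 602 ± 11.6 CPM in the controls and 582 ± 19.5 CPM after knockdown (SD, n = 3) and did not pass. PRPF38A, which joins before activation, was at 168 ± 6.90 CPM in the controls and 160.3 ± 3.15 CPM after knockdown and PRPF18, which acts in the second step, at 33.6 ± 1.64 CPM in the controls and 36.5 ± 3.17 CPM after knockdown. PRPF38B stayed at or under 0.473 CPM. None of these passed. The SNRNP proteins of the minor spliceosome did not pass. SNRNP25 was at 170.3 ± 6.30 CPM in the controls and 163 ± 7.57 CPM after knockdown, SNRNP48 at 47.7 ± 0.756 CPM in the controls and 49.1 ± 1.82 CPM after knockdown and SNRNP35 at 2.97 ± 0.738 CPM in the controls and 3.21 ± 0.558 CPM after knockdown (SD, n = 3), with log2 fold changes from -0.07 to 0.11.

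The third gene that rose was not a member of the spliceosome. LSM11 belongs to the U7 snRNP, which processes histone messenger RNAs. It had 58.1, 50.8 and 51.3 CPM in the controls and 68.4, 68.8 and 68.5 CPM after knockdown. The 3 shUSP39 libraries were nearly equal and above every control (log2 fold change 0.36, SE 0.06, edgeR adjusted p = 7.00e-05). LSM10, its partner in the U7 ring, was at 135 ± 2.62 CPM in the controls and 138 ± 2.35 CPM after knockdown (SD, n = 3) and did not pass. LSM1, of the cytoplasmic decay ring, was at 12.7 ± 1.72 CPM in the controls and 13.2 ± 0.585 CPM after knockdown and LSM12 at 229.9 ± 3.94 CPM in the controls and 237 ± 7.16 CPM after knockdown, and neither passed, with log2 fold changes of 0.06 and 0.04.

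Exon number of the canonical transcript was set beside the change. Over the 44 genes with a mean of at least 10 CPM, Spearman's rho across genes was -0.26, and without SF3B5 it was -0.21. These genes share libraries and differ in level, so the value is a description with no test. Of 15 genes with 1 to 5 exons, 5 fell and 2 rose, with a median of -0.06, beside 20.1% lower, 27.1% higher and a median of 0.02 over all genes of at least 10 CPM in that range. Of 16 genes with 6 to 15 exons, 6 fell and 1 rose, with a median of -0.08, beside 26.7% lower, 19.2% higher and -0.03. Of 13 genes with at least 16 exons, 8 fell and none rose, with a median of -0.12, beside 39.2% lower, 12.5% higher and -0.10. All genes thus showed the same order by exon number, with a Spearman's rho of -0.20 over 5289 genes. The spliceosomal genes with at least 16 exons had a median level of 592 CPM, against 86.9 CPM for all genes of that range.

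**Figure D5:**
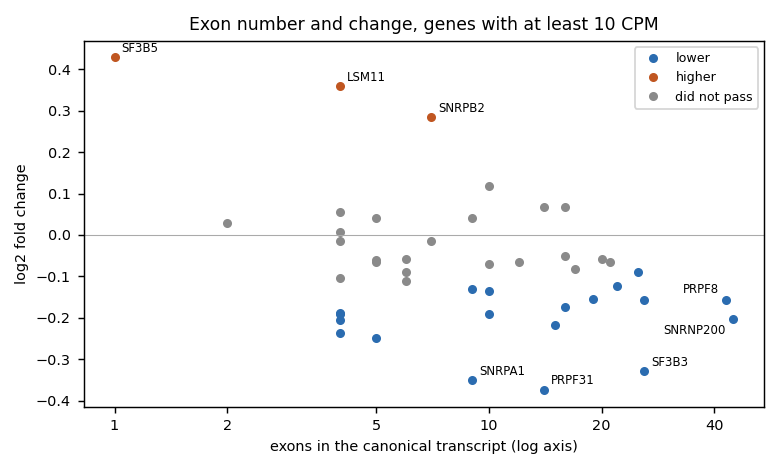
Log2 fold change against the number of exons of the canonical transcript (log axis) for the 44 genes with a mean of at least 10 CPM, coloured by call. The single-exon gene SF3B5 lies highest, and SF3B3, PRPF31 and SNRPA1 lie lowest, at 26, 14 and 9 exons.

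The remaining genes of the pathway were taken from 7 lists of partners, 78 names of which 67 were tested. Of these, 14 fell and 1 rose, with a median of -0.05. In all, 15 passed, against 9 without shUSP39 3. These counts and those of each list are to be read against all genes tested, of which 33.6% were called, 17.5% as lower and 16.1% as higher. For these genes the log2 fold change stands first in the parentheses and the edgeR adjusted p last. Other tri-snRNP proteins gave 2 lower of 6, DDX23, the helicase that helps release U1 (-0.22, SE 0.03, edgeR adjusted p = 2.61e-06) and ZMAT2 (-0.14, SE 0.04, 0.0123). Other U2 proteins gave 1 of 8, SUGP1 (-0.30, SE 0.05, edgeR adjusted p = 5.57e-05), which works with SF3B1 at the branch point. U1 partners gave 2 of 6, RBM25, a regulator that binds U1 (-0.32, SE 0.04, edgeR adjusted p = 6.99e-08) and TIA1, which helps U1 at weak 5′ splice sites (-0.55, SE 0.19, 0.0227). TIA1 was low, at 5.89 ± 0.555 CPM in the controls and 4.02 ± 0.748 CPM after knockdown (SD, n = 3).

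In the PRPF19 complex and the catalytic steps, 4 of 15 fell and 1 rose. AQR, an intron-binding helicase, had 279, 282 and 265 CPM in the controls and 224, 214 and 210.0 CPM after knockdown (-0.35, SE 0.04, edgeR adjusted p = 1.03e-07). CDC5L, a core protein of the complex, changed by -0.29 (SE 0.04, edgeR adjusted p = 2.25e-06). The other genes that fell were CDC40 and BCAS2, and the 1 that rose was BUD31, all named after their values were seen. The BCAS2 groups overlapped, and its call was near the limit (edgeR adjusted p = 0.0494). Of 5 U11/U12 partners, 1 fell, ZCRB1 (-0.47, SE 0.07, edgeR adjusted p = 4.51e-06). Of 15 genes of snRNP assembly and import, 2 fell, GEMIN7 and COIL. GEMIN7 (-0.45, SE 0.16, edgeR adjusted p = 0.0372) was low, at 7.87 ± 1.28 CPM in the controls and 5.76 ± 0.779 CPM after knockdown (SD, n = 3). COIL, the coilin of Cajal bodies, had 91.3, 88.5 and 91.8 CPM and 65.4, 68.4 and 70.8 CPM in the same order (-0.41, SE 0.06, edgeR adjusted p = 1.51e-06). Of 12 genes in the list of U6 processing and tri-snRNP assembly, which also holds cap-binding proteins, 2 fell. These were NCBP1, the large cap-binding protein (-0.23, SE 0.04, edgeR adjusted p = 1.61e-05), and USP4, a deubiquitinase that acts on PRPF3 (-0.53, SE 0.16, 0.0124). USP4 was low, at 7.24 ± 0.168 CPM in the controls and 5.01 ± 0.698 CPM after knockdown (SD, n = 3).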

How the data were processed

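Total RNA of 3 pGIPZ-NC and 3 shUSP39 cultures was sequenced. The authors deposited raw read counts per RefSeq transcript. The submitters' processing notes name HISAT2, Cufflinks and genome build hg19, but the counter, its use of strand and of reads shared between transcripts are not given in the sources used here. The authors' columns of group means, fold changes, p-values and q-values were not used. The 21368 transcript counts were summed per symbol, filtered with filterByExpr, scaled with TMM and fitted with edgeR 4.0.16 (robust quasi-likelihood, group as the only term) in R 4.3.3, with Benjamini-Hochberg adjustment over 10695 genes and a limit of 0.05. SE values were derived from the F statistic. The biological coefficient of variation was 7.59%, and depth was 28294819 to 32939264 counts. Transcript usage was tested with diffSpliceDGE. Coordinates and exon numbers came from GENCODE on GRCh37, and current transcripts from RefSeq. Scripts were tested on simulated data. There, over genes of all tested levels, 92.6% of changes of 1 on the log2 scale passed, 57.6% of 0.5 and 3.03% of 0.25. Those changes were set in 68, 66 and 66 of 10552 tested genes, with 1 dispersion at every level. In the data 33.6% of genes were called, so the adjustment was less strict than in the simulation. The simulated shares thus do not give the share that would pass here, where SF3B2 passed at -0.12. A gene that did not pass may still have changed by a small amount. Alternatives were scaling, filter, DESeq2 1.42.0, limma-voom (limma 3.58.1), a replicate block, libraries left out and transcript choice. Genes and lists were chosen with earlier results of these data known. Named genes are those called, those the study examined as proteins, and the 2 most changed called genes of each partner list, and the other members are given by level or range. A gene that counts among those called is not reported here by name.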

Additional observations from a re-analysis of the deposited data

How the results depend on the processing

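Of the 23 genes called, 13 kept their call under every alternative in which they were tested, and no called gene reversed. With shUSP39 2 and 3 left out, which leaves 1 shUSP39 library and takes the spread from the controls, 14 genes passed, 12 of them lower, the median of tri-snRNP proteins was -0.0609, and 8 partner genes passed. Calls lost under that alternative alone included SART3, SF3B6 and SNRNP40, at log2 fold changes of -0.09, -0.11 and -0.15 (edgeR adjusted p = 0.243, 0.271 and 0.0512). Leaving out 1 library at a time gave 15 to 20 lower and 2 to 3 higher genes, medians of -0.1521 to -0.0849 for U1 and -0.1600 to -0.0727 for the tri-snRNP, and 9 to 16 partner genes, with 9 without shUSP39 3. Upper-quartile scaling gave medians of -0.0212 for all 54 genes, -0.0668 for U1, -0.0790 for U2 and -0.0601 for the tri-snRNP, with 15 lower and 4 higher genes. PRPF3 then passed as higher (edgeR adjusted p = 0.0290), and 58.05% of all called genes were higher, against 47.97% with TMM. Scaling by library size alone gave -0.0401, -0.0859 and -0.0979 for all 54 genes, U1 and U2.

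For same-numbered libraries of the 2 groups, deviations from the group means had correlations of 0.069, 0.00477 and 0.0216 over all genes tested. Of 6 libraries, 3 correlated best with their own number. Genes of few counts enter these values, so low correlations cannot show that the libraries were unpaired. With the replicate number as a block, 21 genes fell and 3 rose (24 in all), with 3981 calls over all genes, against 3598 without the block.

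Genes of few counts, EFTUD2 and LSM5 among them, limit by their depth what can be said of their particles. The restriction to genes of at least 100 CPM and the alternatives for the partner genes were chosen after seeing the data.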
